A study of Homo sapiens with 6 samples.

Results

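A stretch of human chromosome 14 that runs from ABHD4 to FBXO33 held 42 named loci, out of 6357 assembled loci in the table. In 41 of the 42, mean expression was higher in FN3K knock-out cells than in wild type cells, as it was in 38.0% of all loci. The members were taken by their place in the table: every row from ABHD4 to FBXO33 that carries a gene name, apart from 8 rows whose names belong to gene families set aside. The edges of the stretch had been drawn from the same comparison of knock-out with wild type cells that is described here. Its fold changes are therefore a description, no test is given for them, and nothing is supported by the count of members that moved one way.

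HepG2 is a cell line from a human liver tumour. Libraries came from HepG2 wild type (WT) cells and from HepG2 cells in which FN3K was knocked out by CRISPR (FN3K KO), with 3 plates of each, all grown in the same medium with fetal bovine serum. FN3K encodes fructosamine-3-kinase, which phosphorylates sugars bound to lysines of proteins. How many KO clones stand behind the 3 plates is not given in the sources used here, so the spread between plates may be technical and does not cover the difference between clones. The samples are bulk RNA, so fewer cells of a type and less RNA per cell cannot be told apart.

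Values are FPKM, fragments relative to transcript length and to sequencing yield. They summed to between 289983 and 314164 per library, and 40 to 81 loci per library were listed at 0, none of them a member. FN3K had 27.7, 21.9 and 23.2 FPKM in the WT libraries and 0.782, 1.03 and 0.704 FPKM in the KO libraries. Of 13 hepatocyte markers 10 were listed, with summed FPKM of 10849 to 10976 in WT and 17286 to 18353 in KO, while 0 of 5 fibroblast, 0 of 4 blood and 0 of 3 endothelial markers were listed. The part of the higher hepatocyte markers in the values of the block was not tested.

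Neighbouring genes of a human chromosome mostly have unrelated products and promoters of their own. What they share is the DNA molecule they lie on, with its copy number in the cell, and often the chromatin around them. The members encode, among others, reductases, an inhibitor of NF-kappaB, splicing and nuclear import proteins, ubiquitin ligase subunits and vesicle fusion proteins. The libraries hold RNA alone, and DNA copies and chromatin were not measured.

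On GRCh38 the block covered chromosome 14 from 22598237 to 39432500, a length of 16.8 Mb. It fell into a dense first part from ABHD4 to CIDEB (22598237 to 24311430, 1.71 Mb, 22 members) and a sparse second part from SCFD1 to FBXO33 (30622112 to 39432500, 8.81 Mb, 20 members). Between them lay 6.31 Mb with no member. By GENCODE 29, 40 members are protein coding, 1 is an antisense RNA (DHRS4-AS1) and 1 awaits experimental evidence of its type (RP11-671J11.5).

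The promoters of the members are shown because neighbours that moved together can be compared by the sequence in front of them. RefSeq (GRCh38.p14) had a promoter for 36 of the 42 members. In the 120 bases before the start of 5 of them no exon lies, and these 5 windows are printed here 5′ to 3′ on the gene's own strand: DHRS2 (chr14:23629995-23630114, plus strand), DHRS4L2 (chr14:23969754-23969873, plus strand), EMC9 (chr14:24141592-24141711, minus strand), TINF2 (chr14:24242675-24242794, minus strand) and NFKBIA (chr14:35404750-35404869, minus strand). Capitals mark matches, on either strand, to 5 motifs: the box TATAAA, the box spelled CCAAT, the GC box spelled GGGCGG, a form of the sterol response element spelled TCACNCCAC, and the core of the antioxidant response element spelled TGACNNNGC, where N is any base.
DHRS2: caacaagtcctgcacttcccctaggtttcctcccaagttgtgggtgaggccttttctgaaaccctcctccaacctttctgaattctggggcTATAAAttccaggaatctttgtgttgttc
DHRS4L2: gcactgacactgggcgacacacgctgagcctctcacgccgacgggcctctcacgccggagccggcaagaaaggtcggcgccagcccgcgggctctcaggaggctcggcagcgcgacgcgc
EMC9: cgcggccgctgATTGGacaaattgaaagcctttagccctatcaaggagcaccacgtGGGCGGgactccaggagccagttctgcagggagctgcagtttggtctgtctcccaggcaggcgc
TINF2: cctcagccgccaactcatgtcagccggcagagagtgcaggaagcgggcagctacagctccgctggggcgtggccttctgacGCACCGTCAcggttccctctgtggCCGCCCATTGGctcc
NFKBIA: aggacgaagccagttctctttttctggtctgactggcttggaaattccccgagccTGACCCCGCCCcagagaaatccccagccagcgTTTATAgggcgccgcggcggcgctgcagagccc
Within the printed windows, DHRS2 and NFKBIA carry a TATAAA match, and EMC9 and TINF2 carry a CCAAT match as well as a match to GGGCGG. The printed window of DHRS4L2 carries none of the 5 motifs, though its longer RefSeq promoter holds GGGCGG. TINF2 and NFKBIA also carry TGACNNNGC, and NFKBIA carries GGGCGG. In NFKBIA the TGACNNNGC match overlaps a GGGCGG match on the other strand.

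Over the full 300 bases of each RefSeq promoter, 29 of the 36 members (80.6%) were rich in CpG, with a GC content above 50% and a CpG ratio above 0.6, against 46.8% of all 35116 promoters in the table. GGGCGG was present in 26 (72.2%, against 45.0% of all), CCAAT in 16 (44.4%, against 34.6%), TGACNNNGC in 7 (19.4%, against 13.3%), TATAAA in 5 (13.9%, against 11.5%) and TCACNCCAC in 0 (against 1.13%). The table of promoters covers genes of every type, expressed in HepG2 or not, so these shares describe the members and were not compared by a test.

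Most members were higher in KO, by amounts that differed among them. The median over the members was 7.45 FPKM in WT and 15.8 FPKM in KO, beside medians of 13.4 and 12.7 FPKM over all loci. Each median was taken on its own and need not come from the same members, so the pair gives no member's ratio. On the log2(FPKM + 1) scale the median fold change of KO over WT was 0.60, with the middle of the members between 0.45 and 0.90 (lower and upper quartile) and the whole range from -0.67 to 2.02. For all loci the median was -0.14, so the median member stood 0.73 above it. Of the 42 members, 21 had a log2 fold change from 0.4 to 0.8, a range that held 10.1% of all loci.

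As a ratio of mean FPKM, among the 41 members with a mean of at least 1 FPKM in both groups, the median was 1.58 and the quartiles were 1.39 and 1.96. Ratios above 2 were found for 9 members. In limma with Benjamini-Hochberg adjustment over all loci, 34 members were called higher in KO, where 21.2% of all loci were called higher. When Ballgown's library adjustment was added to a plain linear model, 18 members were called higher, beside 9.53% of all loci. With limma 1 member was called lower, beside 36.5% of all loci. All 3 KO libraries lay above all 3 WT libraries for 33 members, as for 23.6% of all loci, and below them for 1 member, as for 39.8% of all loci. A log2 fold change above 1 was seen for 8 members and 4.45% of all loci. The rule used this contrast, and nothing is read from these counts.

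**Figure D1:**
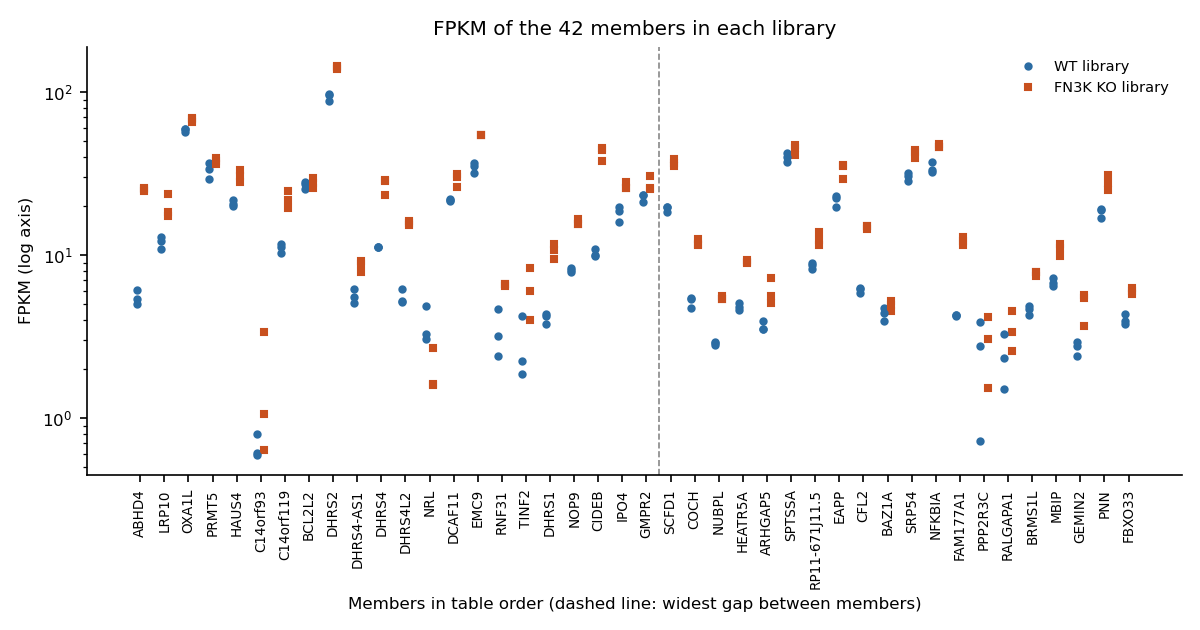
FPKM (log axis) of each member, in table order from ABHD4 to FBXO33, with circles for the 3 WT and squares for the 3 FN3K KO libraries and a dashed line at the widest gap between members. The squares all lie above the circles for 33 of the 42 members, all below them for NRL, and overlap them for 8.

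The shift was seen in each KO library on its own. Against the mean of the WT libraries, the median member stood 0.60, 0.58 and 0.65 higher in KO 1, KO 2 and KO 3 on the log2(FPKM + 1) scale, with 39, 41 and 40 of 42 members higher. Each WT library set against the mean of the other WT libraries gave -0.09, 0.03 and 0.04. For the 116 named loci of chromosome 14 outside the block, the same medians were 0.04, 0.07 and 0.10 in the KO libraries. Of all 6357 loci, 2394, 2594 and 2484 were higher in KO 1, KO 2 and KO 3 against the mean of the WT libraries. The edges of the block were drawn from these same libraries, so the values per library are a description.

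Summed over members, FPKM came to 618, 649 and 659 in WT 1, WT 2 and WT 3 and to 1005, 974 and 1001 in KO 1, KO 2 and KO 3. As a share of all FPKM these sums were 0.206%, 0.223% and 0.226% in WT and 0.347%, 0.331% and 0.319% in KO. The WT and KO libraries did not overlap on either measure. That is a description, since the edges of the block were drawn from these same libraries.

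**Figure D2:**
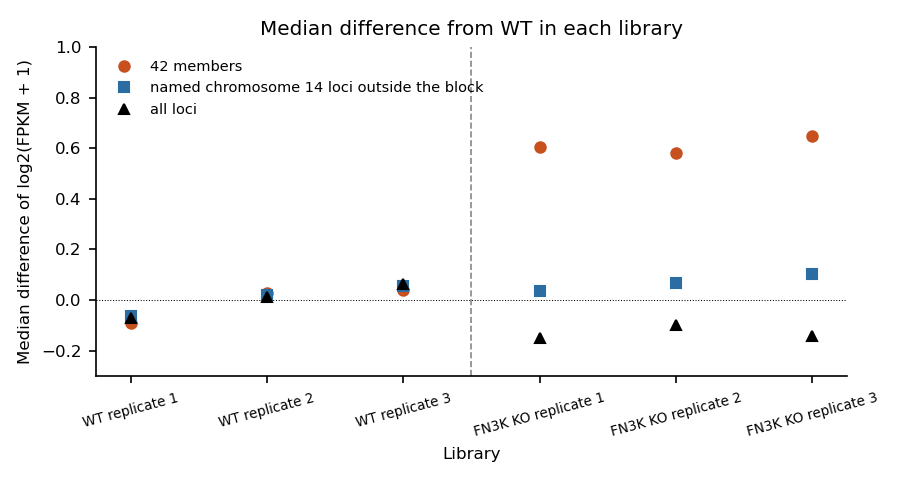
Median difference in log2(FPKM + 1) of each library for the members (circles), named loci of chromosome 14 outside the block (squares) and all loci (triangles), with KO libraries set against the mean of the WT libraries and a WT library against the mean of the other WT libraries. The members stand at 0.60, 0.58 and 0.65 in the KO libraries, apart from the WT libraries and from the other loci. The edges of the block were drawn from these same libraries.

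ABHD4, the first gene of the block, had the highest fold change. It encodes a hydrolase that acts on N-acyl phospholipids. Its level was 6.08, 5.04 and 5.41 FPKM in WT and 25.8, 24.7 and 25.6 FPKM in KO, means of 5.51 ± 0.526 and 25.4 ± 0.565 FPKM (SD, n = 3). The KO mean was 4.61 times the WT mean, a log2 fold change of 2.02 (standard error 0.08). CIDEB, which takes part in lipid droplet biology and in the lipidation of very low density lipoprotein in hepatocytes, came next. It had 10.8, 9.95 and 9.98 FPKM in WT and 45.2, 37.7 and 44.2 FPKM in KO, a ratio of means of 4.13 and a log2 fold change of 1.94 (standard error 0.08). These 2 genes lie at the ends of the first part and stood apart from the other members, whose highest log2 fold change was 1.36. Without them the median of the members was 0.59.

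The cluster of short-chain dehydrogenase/reductase genes lies between them. These enzymes use nicotinamide cofactors to reduce or oxidise carbonyl and alcohol groups, and DHRS4 is a peroxisomal reductase of retinal and other carbonyls. DHRS4L2 had 5.24, 5.19 and 6.18 FPKM in WT and 16.1, 15.3 and 15.8 FPKM in KO (log2 fold change 1.36). DHRS4 had 11.3, 11.3 and 11.3 FPKM in WT and 28.3, 28.8 and 23.4 FPKM in KO (1.18). DHRS1, farther along, had 3.77, 4.35 and 4.25 FPKM in WT and 11.7, 10.7 and 9.45 FPKM in KO (1.18). In all 3 genes the KO mean was more than 2 times the WT mean. DHRS2 was the most abundant member at 88.3, 95.6 and 97.8 FPKM in WT and 144, 138 and 143 FPKM in KO, and its log2 fold change of 0.59 (standard error 0.06) was close to the median of the block. The antisense RNA DHRS4-AS1 had 5.11, 5.54 and 6.20 FPKM in WT and 9.24, 7.86 and 8.81 FPKM in KO (0.54). DHRS4 and DHRS4L2 are near copies: of the 50-base words of the DHRS4 transcript, 45.0% are also in DHRS4L2 transcripts, and 44.8% the other way. DHRS4 also shares 20.3% of its words with DHRS4-AS1. The separate values of DHRS4 and DHRS4L2 are therefore uncertain.

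The metabolic list also holds enzymes and mitochondrial proteins outside this cluster. NUBPL, an assembly factor of respiratory complex I, had 2.81, 2.89 and 2.94 FPKM in WT and 5.40, 5.66 and 5.40 FPKM in KO (log2 fold change 0.74). GMPR2, which converts GMP to IMP, had 21.1, 23.4 and 23.5 FPKM in WT and 30.8, 25.4 and 25.8 FPKM in KO (0.26). OXA1L, the insertase of the mitochondrial inner membrane, had 59.6, 56.7 and 59.8 FPKM in WT and 69.3, 65.2 and 68.7 FPKM in KO (0.20). SPTSSA, a small subunit of serine palmitoyltransferase, overlapped between groups at 37.4, 42.3 and 39.9 FPKM in WT and 47.5, 41.2 and 45.5 FPKM in KO. Over the 10 mitochondrial and metabolic members, 9 were called higher, and this count and those of the other function lists stand beside the 21.2% of all loci called higher. In this list the median log2 fold change was 0.96, the highest of the 6 function lists, with members from 0.16 to 2.02.

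Members for membrane traffic, transport and cytoskeleton came next, where 8 of 8 were called higher and fold changes had a log2 median of 0.79. CFL2, a cofilin that severs actin filaments, had 5.86, 6.32 and 6.22 FPKM in WT and 15.1, 14.5 and 15.2 FPKM in KO (log2 fold change 1.16). SCFD1, a Sec1 family protein of fusion between the endoplasmic reticulum and the Golgi, had 19.7, 18.5 and 19.8 FPKM in WT and 37.0, 35.0 and 38.9 FPKM in KO (0.90). EMC9, a subunit of the membrane protein insertase of the endoplasmic reticulum whose promoter is printed above, had 32.0, 35.3 and 36.7 FPKM in WT and 54.8, 55.0 and 54.7 FPKM in KO (0.65). In these 3 genes every KO plate was above every WT plate by more than the spread among plates. IPO4, an importin that carries cargo into the nucleus, stood at 0.53, LRP10, of the low density lipoprotein receptor family, at 0.67 and HAUS4, of the augmin complex of the spindle, at 0.52.

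In the same list, FAM177A1 had 4.21, 4.32 and 4.30 FPKM in WT and 11.6, 12.2 and 13.0 FPKM in KO, a log2 fold change of 1.32, the highest of the second part. COCH, which encodes the secreted protein cochlin, had 4.72, 5.46 and 5.42 FPKM in WT and 11.6, 12.5 and 11.7 FPKM in KO (1.06). Groups were far apart in both.

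Genes of RNA processing and translation had a lower median, and 3 of 4 were called higher (median 0.52 on the log2 scale). SRP54, the GTPase of the signal recognition particle, had 28.6, 30.4 and 31.9 FPKM in WT and 42.8, 39.7 and 44.2 FPKM in KO (0.47). PNN, a splicing protein of nuclear speckles, had 16.9, 19.0 and 19.1 FPKM in WT and 27.6, 25.3 and 31.1 FPKM in KO (0.58). GEMIN2, which helps the SMN complex build spliceosomal particles, had 2.42, 2.93 and 2.78 FPKM in WT and 5.72, 3.70 and 5.48 FPKM in KO (0.67). All 3 showed no overlap between groups. PRMT5, an arginine methyltransferase, overlapped, with 29.2, 36.6 and 33.6 FPKM in WT and 39.6, 38.1 and 36.1 FPKM in KO.

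Of 6 genes for transcription and chromatin, 4 were called higher and 1 lower. EAPP, a partner of E2F factors, had 19.9, 23.0 and 22.3 FPKM in WT and 36.0, 29.3 and 35.4 FPKM in KO (log2 fold change 0.60). MBIP, a subunit of the ATAC acetyltransferase complex, stood at 0.61 and BRMS1L, of the SIN3 deacetylase complex, at 0.64. TINF2, of the shelterin complex that caps telomeres, varied among plates at 1.87, 4.25 and 2.25 FPKM in WT and 3.98, 8.37 and 6.04 FPKM in KO, with overlap. BAZ1A, a subunit of an ISWI remodeler, had 4.77, 3.97 and 4.42 FPKM in WT and 5.20, 4.53 and 4.95 FPKM in KO, and the groups overlapped.

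NRL was the one member with a lower mean in KO. It encodes a transcription factor known for its role in rod photoreceptors. Its level was 3.05, 3.27 and 4.91 FPKM in WT and 1.60, 1.62 and 2.71 FPKM in KO, means of 3.74 ± 1.01 and 1.98 ± 0.639 FPKM (SD, n = 3) and a log2 fold change of -0.67 (standard error 0.24). The libraries did not overlap, but the lowest WT value and the highest KO value lay close together. Its lower call was lost with Ballgown's library adjustment (-0.44) and when WT 2, WT 3, KO 1 or KO 2 was left out, and over all 6 libraries left out in turn the fold change ran from -0.84 to -0.50. Of the 50-base words of its transcript, 12.0% are shared with DCAF11, on the opposite strand, which was higher in KO at 21.4, 21.9 and 22.0 FPKM in WT and 31.4, 30.3 and 26.1 FPKM in KO.

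DCAF11, a substrate receptor of CUL4 ubiquitin ligases, belongs to the 3 members of the ubiquitin list, all called higher (median 0.49 on the log2 scale). RNF31, the catalytic subunit of the linear ubiquitin assembly complex, had 3.18, 2.39 and 4.70 FPKM in WT and 6.62, 6.45 and 6.64 FPKM in KO (0.81). FBXO33, an F-box protein and the last gene of the block, had 3.77, 4.39 and 3.96 FPKM in WT and 6.04, 6.33 and 5.79 FPKM in KO (0.49). The WT plates of RNF31 were more scattered than its KO plates.

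The signalling and cell death genes had the lowest median of the lists, and 2 of 5 were called higher (median 0.43 on the log2 scale). NFKBIA, the inhibitor that holds NF-kappaB in the cytoplasm, had 37.3, 32.3 and 33.4 FPKM in WT and 46.3, 46.3 and 48.1 FPKM in KO (0.44). ARHGAP5 had 3.95, 3.54 and 3.53 FPKM in WT and 5.08, 7.25 and 5.58 FPKM in KO (0.56). These 2 did not overlap between groups. BCL2L2, a relative of BCL2 that opposes cell death, had 25.6, 27.3 and 27.9 FPKM in WT and 25.8, 29.9 and 27.7 FPKM in KO. Its log2 fold change of 0.04 (standard error 0.07) was the closest to 0 of all members. RALGAPA1, which switches off Ral GTPases, overlapped at 1.51, 2.34 and 3.28 FPKM in WT and 2.59, 3.38 and 4.56 FPKM in KO. PPP2R3C, a regulatory subunit of protein phosphatase 2A, was the most scattered of the list, with 3.90, 2.76 and 0.724 FPKM in WT and 4.19, 3.05 and 1.54 FPKM in KO.

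The 6 members in none of the lists had a median log2 fold change of 0.68, and 5 of them were called higher, beside 21.2% of all loci. They are DHRS4-AS1, NOP9, RP11-671J11.5, C14orf119, HEATR5A and C14orf93. C14orf119 had 11.2, 10.3 and 11.8 FPKM in WT and 21.7, 19.6 and 24.7 FPKM in KO (0.92). HEATR5A had 4.61, 5.08 and 4.81 FPKM in WT and 8.94, 9.10 and 9.29 FPKM in KO (0.79). Both were without overlap. C14orf93 was the member of lowest level, with 0.612, 0.799 and 0.594 FPKM in WT and 0.640, 1.06 and 3.38 FPKM in KO, with KO 3 far above the other 5 libraries.

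**Figure D3:**
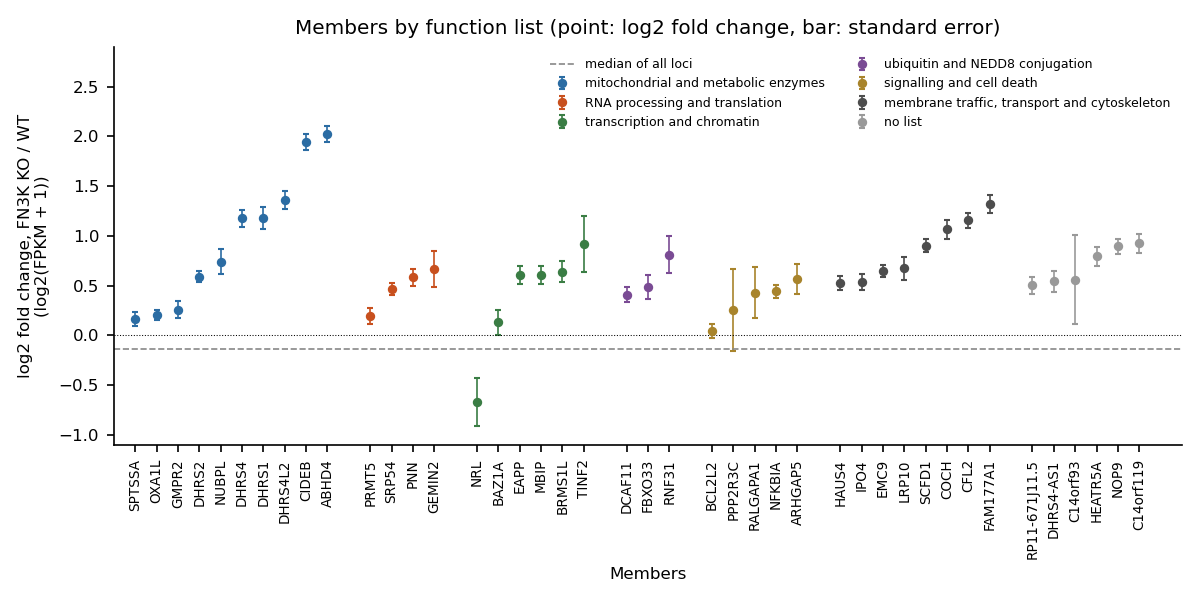
Log2 fold change of KO over WT on the log2(FPKM + 1) scale (points, with bars for the standard error of limma) for the 42 members, grouped by function list, and a dashed line at the median of all loci, -0.14. NRL is the only point below 0, and the mitochondrial and metabolic members cover the widest range of the lists whose points all lie above 0, from 0.16 to 2.02.

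Both parts of the block were higher in KO on the log2(FPKM + 1) scale. In the first part 21 of 22 members were higher (median 0.62, interquartile range 0.49). In the second part 20 of 20 were higher (median 0.59, interquartile range 0.30), and 13 of them fell from 0.4 to 0.8, compared with 8 in the first part. The medians of the 2 parts differed by far less than the spread among members. On the plus strand (22 members) the median was 0.67 and on the minus strand (20 members) 0.54.

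The first 3 members, ABHD4, LRP10 and OXA1L, spanned 2.02, 0.67 and 0.20, so the block began with both its highest value and one of its lowest. The last 3 in table order, GEMIN2, PNN and FBXO33, were closer together at 0.67, 0.58 and 0.49. Just outside, 1.09 Mb before ABHD4, METTL3 stood at -0.09 (standard error 0.16), and TOX4 before it stood at 0.38. CHD8, the third named neighbour, varied from 0.0507 to 4.45 FPKM among WT plates and cannot be read. Beyond FBXO33 lay 5.68 Mb to the next named locus, FKBP3, at 0.18, followed by RPL36AL at 0.17 and MGAT2 at -0.29. The values next to the edges are a description, since the edges were drawn from this contrast.

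**Figure D4:**
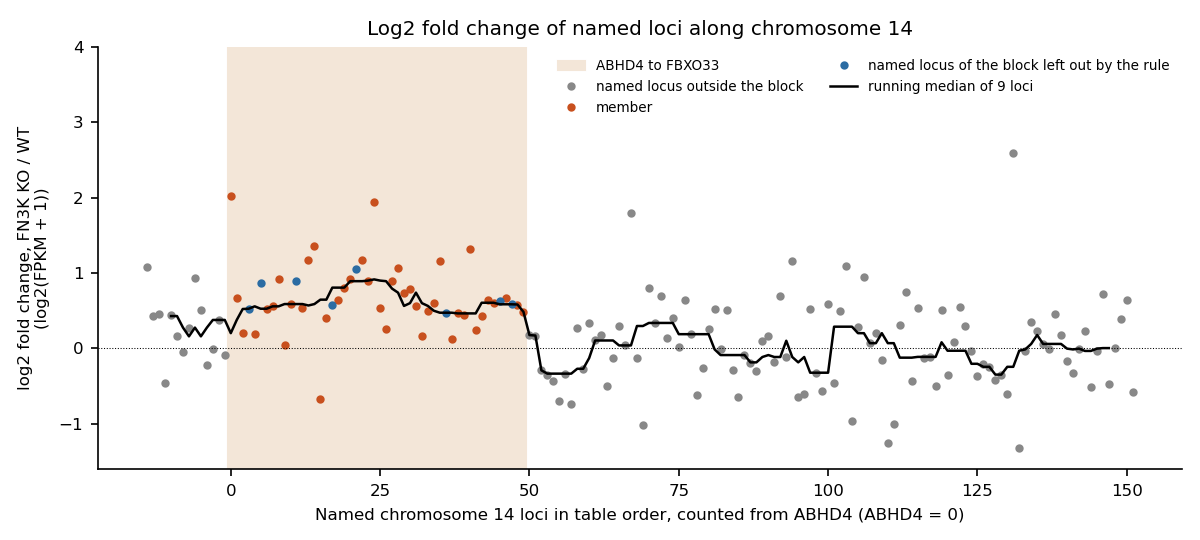
Log2 fold change of KO over WT on the log2(FPKM + 1) scale for named loci of chromosome 14 in table order, counted from ABHD4, with members, loci left out by name and loci outside the shaded block in different colours and a running median over 9 loci. Most members lie above 0, while the 102 named loci after FBXO33 scatter to both sides of 0 with a median of -0.01, and the 14 named loci before ABHD4 have a median of 0.33.

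The 14 named loci before ABHD4 had a higher median than those after FBXO33. Of these 14, 9 were higher in KO and 5 lower, and 8 were called higher, beside 21.2% of all loci. Their median log2 fold change was 0.33, with quartiles of -0.03 and 0.45. After FBXO33, 50 of 102 named loci were higher. There 31 were called higher and 28 lower, beside 21.2% and 36.5% of all loci. The median after FBXO33 was -0.01 with a range from -1.32 to 2.59. The highest of these, DLK1, an inhibitor of Notch signalling that is imprinted, stood at 2.59, above every member.

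The rows that the rule left out by name lay in the same stretch. All 8 (MRPL52, PSMB5, AP1G2, PSME1, RABGGTA, SNX6, FOXA1 and TRAPPC6B) were called higher without overlap, beside 21.2% of all loci called higher and 23.6% higher without overlap, and their log2 fold changes had a median of 0.61 and ran from 0.47 to 1.05. PSME1, a subunit of the proteasome activator PA28, had 124, 120 and 120 FPKM in WT and 180, 176 and 186 FPKM in KO (0.57). PSMB5, a catalytic proteasome subunit, had 69.6, 73.5 and 75.9 FPKM in WT and 132, 135 and 133 FPKM in KO (0.86). FOXA1, a pioneer factor of liver gene expression, had 19.1, 17.3 and 18.8 FPKM in WT and 28.7, 28.0 and 30.0 FPKM in KO (0.63). Of 12 loci without a gene name, 11 were called higher, with a median of 0.55 and a range from -0.09 to 1.42. Every locus of the stretch together (62) gave a median of 0.60, the same as the members. These rows lie within the edges drawn from this contrast too, so they add no independent evidence.

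**Figure D5:**
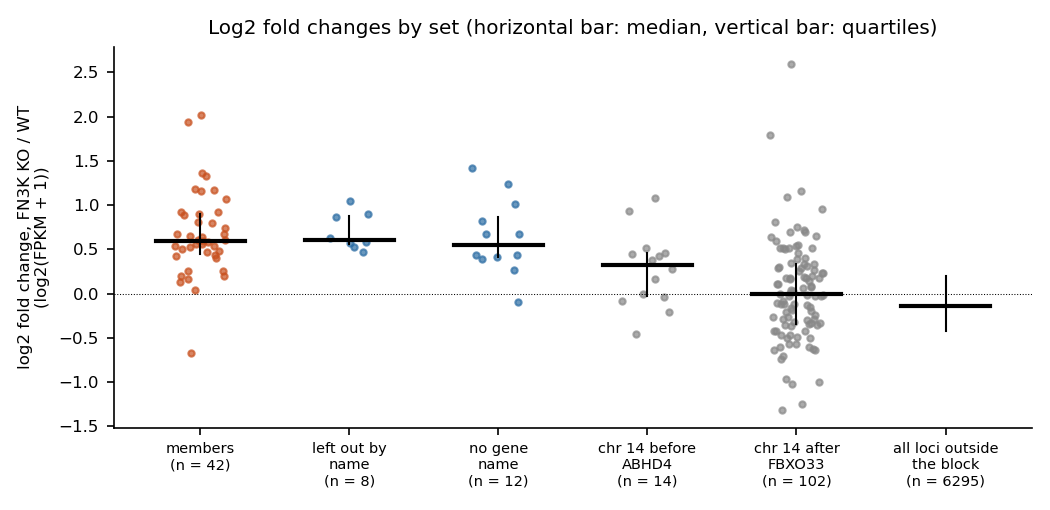
Log2 fold changes of KO over WT on the log2(FPKM + 1) scale for 6 sets of loci, with a point per locus (none for the 6295 loci outside the block), a horizontal bar at the median and a vertical bar over the quartiles. The medians are 0.60 for members, 0.61 for loci left out by name, 0.55 for loci without a gene name, 0.33 before ABHD4, -0.01 after FBXO33 and -0.14 for all loci outside the block.

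Fold changes were also set out by level, in bins of the mean over all 6 libraries, so the KO values themselves help to decide a member's bin and no order by level is read from them. The 16 members with a mean from 5 to 20 FPKM had a median log2 fold change of 0.91, and all 16 were called higher without overlap. The 16 members at 20 FPKM or more had a median of 0.49 with 13 called higher, and the 10 members under 5 FPKM a median of 0.56 with 5 called higher and 1 lower. The added pseudocount understates the change of genes with low FPKM. In the same bins the loci outside the block had medians of -0.25 under 5 FPKM, -0.15 from 5 to 20 FPKM and -0.11 at 20 FPKM or more. Of these loci, 16.4%, 18.9% and 24.9% were called higher in the same order of bins. From 5 to 20 FPKM, 617 of the 2904 loci outside the block were higher without overlap. Under 5 FPKM, 286 of the 1164 loci outside it were called lower.

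Several members share sequence or exons with a neighbour, and whether the libraries keep the strand is not given in the sources used here. Of the 50-base words of each transcript, at least 5% also occur in transcripts of another gene for 21 members. The share is 100% for RP11-671J11.5 (with SNX6), 95.1% for IPO4 and 88.2% for CIDEB (with NOP9, on the opposite strand). It is 68.4% for DHRS4 and 58.3% for RALGAPA1 (with the pseudogene RALGAPA1P1). DHRS4L2 stands at 51.9%, HAUS4 at 48.3%, HEATR5A at 47.6%, RNF31 at 47.0%, ARHGAP5 at 41.0% and COCH at 33.2%. The values of these members are uncertain for that reason. NOP9, which takes part in ribosomal RNA processing but is not in the RNA processing and translation list used here, had 7.85, 8.36 and 8.13 FPKM in WT and 15.6, 16.6 and 15.5 FPKM in KO (log2 fold change 0.89). Reads from the stretch that CIDEB and NOP9 share cannot be told apart without strand. For ABHD4 the share is 1.39%. Among the 14 members with under 5% shared and no exon overlap on either strand, 14 were higher, beside 38.0% of all loci. Of these members 13 were called higher, beside 21.2% of all loci. Their median log2 fold change was 0.64, with a median ratio of means of 1.63. These members lie within the edges drawn from this contrast, so they add no independent evidence.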

How the data were processed

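RNA of HepG2 cells, 3 WT and 3 FN3K KO plates, was sequenced. The authors used HISAT2 for mapping and StringTie for assembly and quantification (2.0.6 in the submitters' processing notes, which name GRCh38 and GRCh38.p5), and deposited FPKM values for 6357 loci, with no columns of other samples or of the authors' own tests. Library depth is unknown: over the 300 loci of lowest mean, at most 1 locus had any given ratio in each of 15 pairs of libraries, so low values showed no steps of whole reads.

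The members and lists were chosen with earlier results of these data known. Members were taken by locus number and name. log2(FPKM + 1) was fitted over all 6357 loci with limma 3.58.1 (lmFit, eBayes with a variance trend) in R 4.3.3, with a Benjamini-Hochberg adjusted p under 0.05 as a call. Fold changes are on this scale, standard errors are from limma, and ratios are of mean FPKM. Named genes are the 5 highest and 5 lowest fold changes among members without overlap, members called against the median, the first and last 3 members, the most abundant of each function list, FN3K, edge neighbours and the loci left out by name. Other members, and DLK1, were named after their values were seen.

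Coordinates and types came from GENCODE 29, matched through transcript identifiers for 4892 loci and all 42 members, and promoters from RefSeq. Shared sequence was counted over 50-base words of GENCODE transcripts. Each result was recomputed with 0.1 as the pseudocount, with loci under a mean of 1 FPKM removed, with libraries brought to the same 75th percentile, with no variance trend, with Ballgown's library adjustment, with a replicate block, and without each library, and the median also over every locus of the block and from ratios without a pseudocount. The fits were tested on simulated data. Python 3.11.15 with pandas 2.3.3, numpy 2.4.6 and matplotlib 3.10.9 was used.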

Additional observations from a re-analysis of the deposited data

How the results depend on the processing

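The direction of the members' median did not depend on the settings tried, while the number of calls did. The median log2 fold change of the members was 0.60 as reported, 0.67 with a pseudocount of 0.1, 0.64 with libraries brought to the same 75th percentile, 0.63 with the library adjustment of Ballgown and 0.66 as a ratio of means without a pseudocount. It was 0.64 without the members that share sequence or exons, an alternative chosen after seeing the data, and ran from 0.57 to 0.64 with each library left out in turn. The median of named chromosome 14 loci outside the block was 0.0155 as reported, 0.0577 with the 75th percentile, 0.10 with the Ballgown adjustment and 0.0149 to 0.0725 with each library left out, and the median of all loci was -0.14 as reported, -0.10 with the 75th percentile and -0.05 with the Ballgown adjustment.

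With the Ballgown adjustment in an ordinary linear model, 18 members were called higher in place of 34, all 18 of them among the 34, where 9.53% of all loci were called higher. That model called 0 members lower in place of 1, and 0 members were lower at an unadjusted p under 0.05, while limma had 1 at that limit. The shares of all loci called lower in that model, or lower at the unadjusted limit, are not given here. With each library left out, 32 to 34 members were called higher and 0 to 1 lower. With all libraries kept, 21.2% of all loci were called higher and 36.5% lower, and the shares with a library left out are not given here. The block was drawn from this contrast, so nothing is read from these counts. The call of NRL was lost without WT 2, WT 3, KO 1 or KO 2. GMPR2 lost its call without WT 1, WT 2, WT 3 or KO 1, and GEMIN2 without KO 1.

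Deviations from the group means correlated by 0.00958, 0.00606 and 0.0458 between plates of the same replicate number. Between plates of different numbers the correlations ran from -0.0454 to 0.0350. Whether plates were grown or harvested in pairs cannot be told from these values. With the replicate block 34 members were called higher and 1 lower, and the median was 0.60. Without that block 21.2% of all loci were called higher and 36.5% lower.

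Genes near 0 changed sign. CHD8 was at 0.27 with a pseudocount of 0.1, 0.0053 with the 75th percentile, 0.28 with the Ballgown adjustment and -0.61 to 0.58 with each library left out. METTL3 was at 0.19 and BAZ1A at -0.011 with the Ballgown adjustment, METTL3 ran from -0.21 to 0.035 and BCL2L2 from -0.0090 to 0.094 with each library left out. The cause was not tested. Precision is set by the 3 plates per group, and depth is unknown.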
